A study of Arabidopsis thaliana with 22 samples.

Results

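Transcripts of 5 cell wall genes were followed through the growth of leaf 10 of Arabidopsis thaliana: the alpha-expansin genes EXPA8 (AT2G40610), EXPA15 (AT2G03090) and EXPA16 (AT3G55500), and the xyloglucan endotransglucosylase/hydrolase (XTH) genes XTH16 (AT3G23730) and XTH32 (AT2G36870). They were chosen by name, with earlier results of these data known, as probe sets annotated to exactly 1 gene. Their counts and medians beside those of all probe sets are therefore descriptions and not tests. Each of the 5 genes had 1 such probe set, so 5 of the 12511 probe sets tested are described. The plants were wild-type Col-0 and the 22 arrays fell into 6 groups of leaf stage and CO2 level: primordia at elevated (750 ppm) and at ambient CO2 (370 ppm), with 4 arrays each; leaves in rapid expansion at elevated and at ambient CO2, with 3 arrays each; and fully expanded, mature leaves at elevated and at ambient CO2, with 4 arrays each. All plants had first spent 7 days at 370 ppm. Days lasted 10 h at 21 °C and nights 14 h at 18 °C, with light of 300 µmol per square metre per second. Each primordia replicate pooled 20 plants. Each CO2 level was held in its own growth chamber, and an effect of CO2 cannot be told apart from one of the chamber.

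Expansins are secreted proteins that loosen contacts between cellulose and the polymers bound to it, without cutting them, and let an acidified wall yield to turgor. XTH proteins act on xyloglucan, the main hemicellulose that coats cellulose in the primary wall of a leaf: they cut a chain and either join the end to another xyloglucan or release it by hydrolysis. A leaf first grows mainly by cell division, then by cell expansion, and stops when its walls no longer extend, and different members of both families are known to be used in different organs and phases of growth.

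Levels below are log2 expression values relative to the median probe set of the same array, which is 0. Differences are on the same log2 scale, the later stage minus the earlier or elevated minus ambient CO2, and come from 1 limma fit over all arrays, with Benjamini-Hochberg adjustment of the p-values across 12511 probe sets. A change was called at an adjusted p under 0.05. Levels of different genes are not compared, since each probe set has its own response. The arrays held whole primordia or whole leaves, so fewer cells of a type and less RNA per cell cannot be told apart.

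All 5 stage markers differed in mean between primordia and both later stages in the direction of their labels, cell division lower and photosynthesis higher in the later stages. PRL, a replication helicase subunit, averaged 1.59 and 1.50 in primordia at elevated and ambient CO2, -0.42 at elevated and -0.20 at ambient CO2 in expanding leaves, and -1.08 at elevated and -1.33 at ambient CO2 in mature leaves. LHCB4.1, a light-harvesting protein of photosystem II, averaged 4.59 at elevated and 4.48 at ambient CO2 in primordia, and between 5.30 and 5.49 in the later stages. PSBY, a photosystem II subunit, averaged less in mature leaves (4.64 at elevated and 4.79 at ambient CO2) than in expanding leaves (5.02 at elevated and 5.12 at ambient CO2). The mature leaf arrays of elevated replicates 3 and 4 scored 36.3 and 27.7 on the second principal component, away from the other 6 mature arrays at -7.74 to 14.9. Many results of the 5 genes that use mature leaves at elevated CO2 are therefore also given without both.

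**Figure D1:**
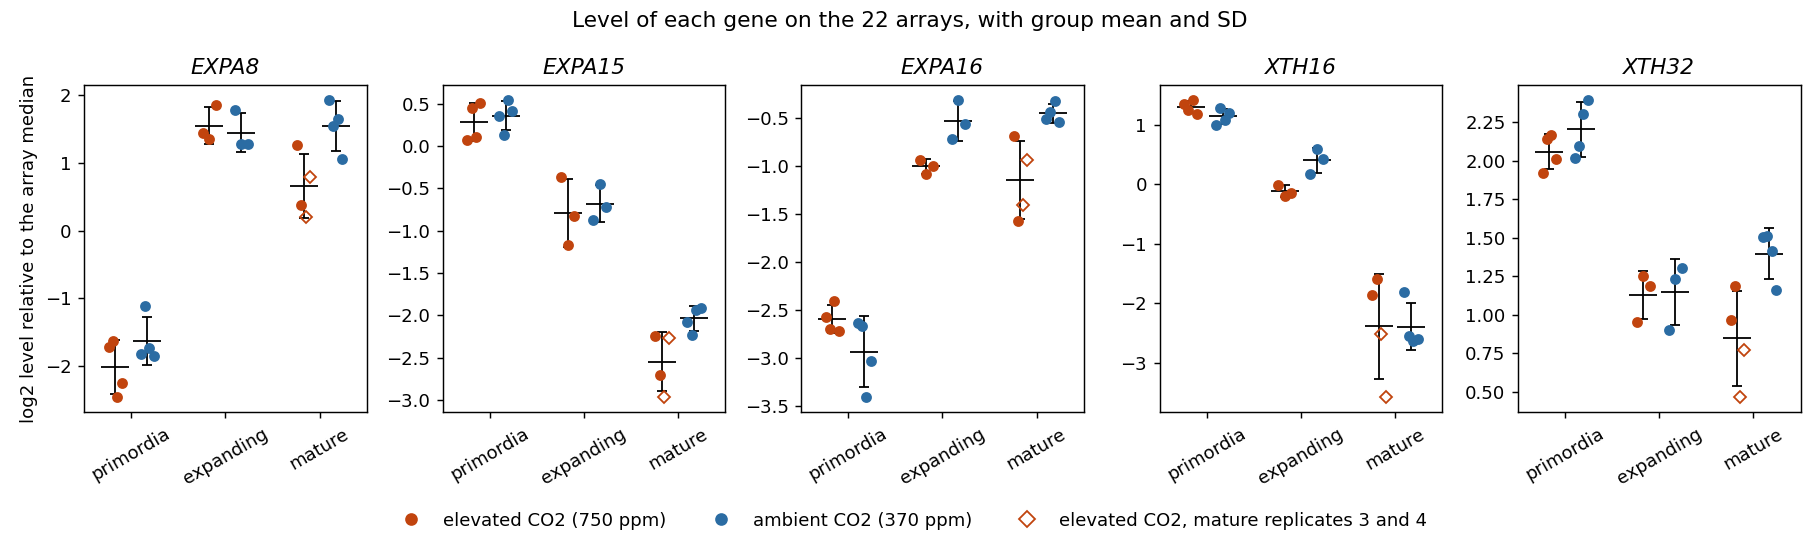
Levels of EXPA8, EXPA15, EXPA16, XTH16 and XTH32 (log2, relative to the array median) on the 22 arrays by stage, elevated CO2 left of ambient CO2. Points are arrays, horizontal marks are group means, whiskers are SD, and open diamonds are mature elevated replicates 3 and 4. EXPA8 and EXPA16 are lowest in primordia, and the other genes are highest there.

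The 5 genes followed different courses as the leaf grew. EXPA8 and EXPA16 were low in primordia and rose by the expanding stage, whereas EXPA15, XTH16 and XTH32 were highest in primordia and fell. Between primordia and expanding leaves all 5 changed at elevated CO2 and all 5 at ambient CO2, where 69.9% and 66.3% of all probe sets were called (36% as higher and 33.9% as lower at elevated CO2, 35.1% and 31.2% at ambient CO2). Stage accounted for 92.3% of the variation of EXPA8 over the 22 arrays, 94.4% for EXPA15, 88.4% for EXPA16, 94.0% for XTH16 and 79.9% for XTH32.

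Among the expansins, EXPA8 made the largest step. In primordia its levels were -1.72, -1.63, -2.46 and -2.24 at elevated CO2, against -1.83, -1.11, -1.74 and -1.85 at ambient CO2. In expanding leaves they were 1.44, 1.36 and 1.86 at elevated CO2, against 1.78, 1.28 and 1.28 at ambient CO2. In mature leaves they were 1.26, 0.38, 0.20 and 0.80 at elevated CO2, against 1.93, 1.54, 1.65 and 1.05 at ambient CO2. Every primordia array was below every later array. The mature arrays at elevated CO2 lay below all expanding arrays and overlapped the mature arrays at ambient CO2.

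The step from primordia to expanding leaves in EXPA8 was 3.57 ± 0.26 (SE) at elevated CO2, an 11.8-fold rise, and 3.08 ± 0.26 at ambient CO2, an 8.44-fold rise (limma adjusted p 1.74e-10 and 2.14e-09). Of all probe sets, 0.456% changed by more at elevated CO2 and 0.568% at ambient CO2. The next step differed in outcome between the CO2 levels: from expanding to mature leaves EXPA8 fell by 0.89 ± 0.26 at elevated CO2 (adjusted p 0.00957) and was at 0.10 ± 0.26 at ambient CO2 (adjusted p 0.779). The difference of these steps, which is also the difference of the CO2 effects, was -0.99 ± 0.36 and did not pass (adjusted p 0.347, unadjusted p 0.0129; -0.83 and adjusted p 0.383 without mature elevated replicates 3 and 4). The fall at elevated CO2 was -0.74 without expanding elevated replicate 3 (adjusted p 0.0544) and -0.73 without mature elevated replicates 3 and 4 (adjusted p 0.0919).

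EXPA16 took a like course to a plateau, though its mean over all arrays was in the lowest 25% of probe sets. Its levels in primordia were -2.58, -2.70, -2.40 and -2.72 at elevated CO2, against -2.63, -2.66, -3.41 and -3.03 at ambient CO2. In expanding leaves they were -0.93, -1.08 and -0.998 at elevated CO2, against -0.72, -0.31 and -0.57 at ambient CO2. In mature leaves they were -0.68, -1.57, -1.40 and -0.94 at elevated CO2, against -0.51, -0.44, -0.32 and -0.54 at ambient CO2. The elevated arrays lay below all ambient arrays in both later stages, whereas in primordia the groups overlapped.

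EXPA16 rose by 1.59 ± 0.19 (SE) between primordia and expanding leaves at elevated CO2, 3.02-fold, and by 2.40 ± 0.19 at ambient CO2, 5.29-fold (limma adjusted p 1.57e-07 and 7.07e-10). From expanding to mature leaves it was at -0.14 ± 0.19 at elevated CO2 and 0.08 ± 0.19 at ambient CO2 (adjusted p 0.573 and 0.752). The elevated step was -0.12 without mature elevated replicates 3 and 4 (adjusted p 0.736). The difference of this first rise, elevated minus ambient, was -0.81 ± 0.26 (95% interval -1.36 to -0.27), and this difference did not pass over all probe sets (adjusted p 0.283, unadjusted p 0.00555).

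EXPA15 was the expansin with the opposite course. Its levels in primordia were 0.07, 0.46, 0.11 and 0.50 at elevated CO2, against 0.35, 0.13, 0.55 and 0.41 at ambient CO2. In expanding leaves they were -0.37, -1.17 and -0.83 at elevated CO2, against -0.87, -0.45 and -0.72 at ambient CO2. In mature leaves they were -2.25, -2.70, -2.97 and -2.27 at elevated CO2, against -2.07, -2.23, -1.93 and -1.91 at ambient CO2. The 3 stages did not overlap at either CO2 level, and the CO2 levels separated only in mature leaves, by a gap between the lowest ambient array at -2.23 and the highest elevated array at -2.25.

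EXPA15 fell at both steps. Between primordia and expanding leaves the change was -1.07 ± 0.19 (SE) at elevated CO2 and -1.04 ± 0.19 at ambient CO2 (limma adjusted p 2.86e-05 and 4.95e-05). From expanding to mature leaves it was -1.76 ± 0.19 at elevated CO2 and -1.36 ± 0.19 at ambient CO2 (adjusted p 1.12e-06 and 7.71e-06), a fall to 0.296 times the level in expanding leaves at elevated and 0.391 times at ambient CO2. Over both steps the level in mature leaves came to 0.141 times that in primordia at elevated CO2 and 0.190 times at ambient CO2. The difference of the second step between CO2 levels was -0.40 ± 0.26 (95% interval -0.95 to 0.14, adjusted p 0.644). Without mature elevated replicates 3 and 4 the elevated step was -1.69 (adjusted p 2.30e-05) and this difference -0.33 (adjusted p 0.646).

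Of the XTH genes, XTH16 had the widest range. XTH16 belongs to the large clade of enzymes that cut and rejoin xyloglucan. Its levels in primordia were 1.35, 1.24, 1.42 and 1.18 at elevated CO2, against 1.00, 1.28, 1.08 and 1.20 at ambient CO2. In expanding leaves they were -0.0068, -0.20 and -0.14 at elevated CO2, against 0.18, 0.59 and 0.43 at ambient CO2. In mature leaves they were -1.86, -1.59, -2.52 and -3.59 at elevated CO2, against -1.81, -2.55, -2.63 and -2.60 at ambient CO2. The stages did not overlap, and the spread was widest in mature leaves at elevated CO2 (SD 0.89, n = 4), where replicate 4 was the lowest of all 22 arrays.

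The fall of XTH16 came mainly late at ambient CO2. At elevated CO2 the late step was the larger with all arrays, but near the first in size without mature elevated replicates 3 and 4. From expanding to mature leaves the change was -2.28 ± 0.30 (SE) at elevated CO2 and -2.80 ± 0.30 at ambient CO2, to 0.206 times the level in expanding leaves at elevated and 0.144 times at ambient CO2 (limma adjusted p 9.78e-06 and 4.69e-07). With all arrays, only 0.184% of all probe sets changed by more at elevated CO2 and 0.0719% at ambient CO2. Without mature elevated replicates 3 and 4 the elevated step was -1.61 (adjusted p 1.69e-05). The first step was -1.41 ± 0.30 at elevated CO2 (adjusted p 0.000258) and -0.74 ± 0.30 at ambient CO2 (adjusted p 0.0337). The call at ambient CO2 did not hold without ambient expanding replicate 1 (-0.63, adjusted p 0.117) or ambient expanding replicate 3 (-0.76, adjusted p 0.0637). Nor did it hold without ambient primordia replicate 2 (-0.69, adjusted p 0.0680) or ambient primordia replicate 4 (-0.72, adjusted p 0.0603). Mature elevated replicates 3 and 4 enter this step only through the shared spread, and without both the call held (-0.74, adjusted p 0.000409).

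XTH32, of a clade whose members include xyloglucan hydrolases, had the flattest course. Its levels in primordia were 1.92, 2.14, 2.17 and 2.01 at elevated CO2, against 2.02, 2.10, 2.31 and 2.40 at ambient CO2. In expanding leaves they were 0.95, 1.25 and 1.18 at elevated CO2, against 0.90, 1.23 and 1.30 at ambient CO2. In mature leaves they were 0.97, 1.19, 0.46 and 0.77 at elevated CO2, against 1.51, 1.51, 1.41 and 1.16 at ambient CO2. Primordia stood above both later stages on every array, and in mature leaves the CO2 groups overlapped only through elevated replicate 2 and ambient replicate 4.

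XTH32 fell by 0.93 ± 0.15 (SE) between primordia and expanding leaves at elevated CO2 and by 1.06 ± 0.15 at ambient CO2 (limma adjusted p 9.41e-06 and 2.22e-06). The step from expanding to mature leaves was -0.28 ± 0.15 at elevated CO2 and 0.25 ± 0.15 at ambient CO2, neither past the threshold (adjusted p 0.135 and 0.173). Their difference was -0.53 ± 0.21 (95% interval -0.97 to -0.10, adjusted p 0.378, unadjusted p 0.0176). The elevated step rested on single arrays. It was -0.05 without mature elevated replicates 3 and 4 (adjusted p 0.837), -0.16 without replicate 3 alone (adjusted p 0.416) and -0.40 without replicate 2, when it passed (adjusted p 0.0316). Without replicates 3 and 4 the difference of the steps was -0.30 (adjusted p 0.526).

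Fewer genes moved at the second step than at the first. At elevated CO2, EXPA8, EXPA15 and XTH16 fell between expanding and mature leaves, 3 of 5, where 37.8% of all probe sets were called and 20.9% were called as lower. At ambient CO2, EXPA15 and XTH16 fell, 2 of 5, with 44.3% of all probe sets called and 24.6% as lower. None of the 5 rose at this step at either CO2 level, where 16.9% of all probe sets at elevated and 19.7% at ambient CO2 were called as higher. The median over the 5 genes was -0.89 at elevated CO2 and 0.08 at ambient CO2, beside -0.03 at each level over all probe sets. From primordia to mature leaves all 5 genes were called at each CO2 level, also without mature elevated replicates 3 and 4, where 78.8% of all probe sets were called at elevated and 78% at ambient CO2. These stage comparisons share their middle or outer groups and are not independent of each other.

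**Figure D2:**
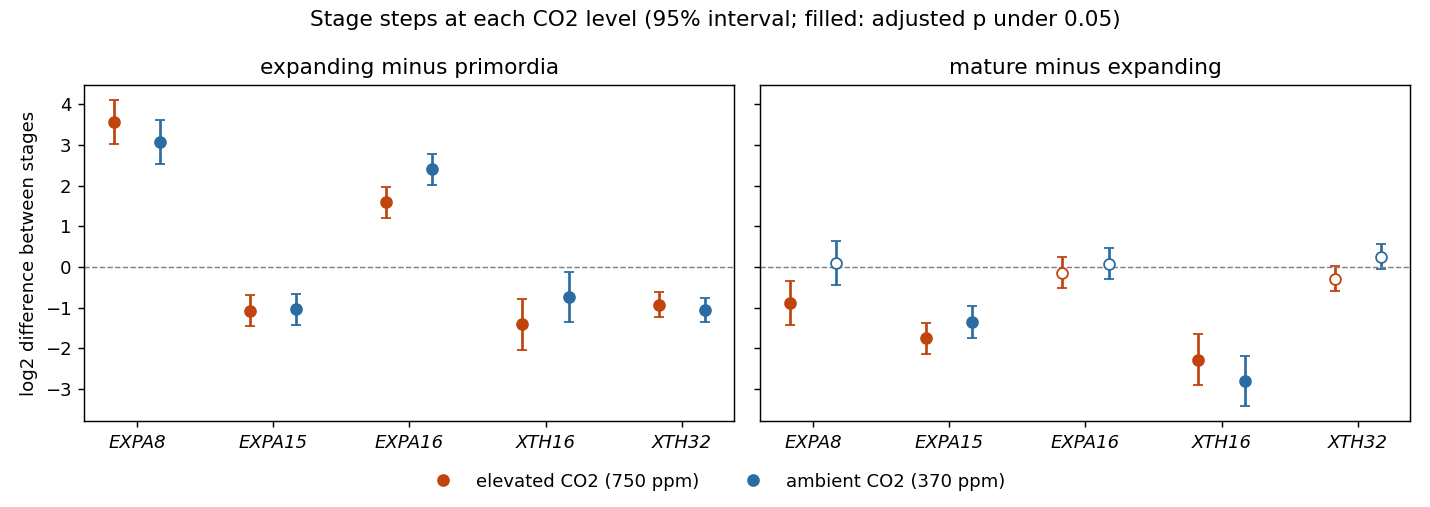
Differences (log2) from primordia to expanding leaves (left) and from expanding to mature leaves (right), at elevated and ambient CO2, with 95% intervals; filled points have an adjusted p under 0.05. At the first step EXPA8 and EXPA16 are above 0 and the other 3 genes below it, and at the second EXPA15 and XTH16 are below 0 at both CO2 levels.

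Ordered by level, EXPA8 was highest in expanding leaves at elevated CO2, mature leaves at ambient CO2 and expanding leaves at ambient CO2, which overlapped, followed by mature leaves at elevated CO2 and, 2.29 lower, by the overlapping primordia groups. EXPA16 was highest in mature and expanding leaves at ambient CO2, which overlapped. Next, with a gap of 0.47 between means, came expanding and mature leaves at elevated CO2, which also overlapped, and last the primordia. EXPA15 and XTH16 kept the order of the stages. In XTH16 the expanding groups did not overlap, at a mean of -0.11 ± 0.10 (SD, n = 3) at elevated CO2 and 0.40 ± 0.21 (SD, n = 3) at ambient CO2. In XTH32, below the primordia, each group overlapped the next: mature at ambient, expanding at ambient, expanding at elevated and mature at elevated CO2. From the highest to the lowest group mean, XTH16 spanned 13.0-fold, EXPA8 11.8-fold, EXPA15 7.50-fold, EXPA16 5.59-fold and XTH32 2.56-fold.

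The CO2 effect was then compared within each stage, the question of the series being whether the response to elevated CO2 depends on the stage of the leaf. In mature leaves 3 of the 5 genes were lower at elevated CO2, EXPA8, EXPA16 and XTH32, where 3.9% of all probe sets were called and 2.14% were called as lower. EXPA8 fell by 0.89 ± 0.24 (SE), to 0.541 times its ambient level, at 0.66 ± 0.47 at elevated against 1.55 ± 0.37 at ambient CO2 (SD, n = 4 each; limma adjusted p 0.0420). EXPA16 fell by 0.70 ± 0.17, to 0.617 times, at -1.15 ± 0.41 at elevated against -0.45 ± 0.10 at ambient CO2 (adjusted p 0.0321). XTH32 fell by 0.55 ± 0.14, to 0.683 times, at 0.85 ± 0.31 at elevated against 1.40 ± 0.17 at ambient CO2 (adjusted p 0.0321). The difference of EXPA8 ranked 24 from the lowest among the 12511.

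The other 2 genes did not pass in mature leaves. EXPA15 was at -0.51 ± 0.17 (SE; 95% interval -0.87 to -0.15), with all 4 elevated arrays below all 4 ambient arrays, and its limma adjusted p was 0.0906 (unadjusted 0.00717). XTH16 was at 0.0049 ± 0.28, with an interval of -0.57 to 0.58 that includes a fall of the size seen in XTH32. The groups of arrays did not overlap for EXPA15 and EXPA16, 2 of 5, as for 9.22% of all probe sets. The median over the 5 genes was -0.55, beside -0.02 over all probe sets.

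The calls in mature leaves were close to the threshold. With elevated replicates 3 and 4 both left out, none of the 3 passed. EXPA16 was at -0.68 (adjusted p 0.192), little changed in size. EXPA8 was at -0.73 (adjusted p 0.302), less by a factor of 1.22, and XTH32 at -0.32 (adjusted p 0.364), less by a factor of 1.72. Of the others, EXPA15 was then at -0.44 (adjusted p 0.367) and XTH16 at 0.67 (adjusted p 0.132). Without elevated replicate 3 alone EXPA8 was at -0.73 (adjusted p 0.157), EXPA16 at -0.61 (adjusted p 0.115) and XTH32 at -0.42 (adjusted p 0.124). Without elevated replicate 4 EXPA8 (adjusted p 0.0771) and XTH32 (adjusted p 0.0802) were lost, and without elevated replicate 2 EXPA8 was lost (adjusted p 0.0598). Without ambient replicate 1, 2 or 3 none of the 3 was called, with adjusted p-values of 0.147, 0.0906 and 0.0996 for EXPA8, 0.0802, 0.0739 and 0.0818 for EXPA16, and 0.105, 0.0829 and 0.0697 for XTH32. Leaving out ambient expanding replicate 2, which enters only through the shared spread, put EXPA8 at an adjusted p of 0.0502. The sign of these 3 differences and of EXPA15 stayed negative in each of these fits.

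**Figure D3:**
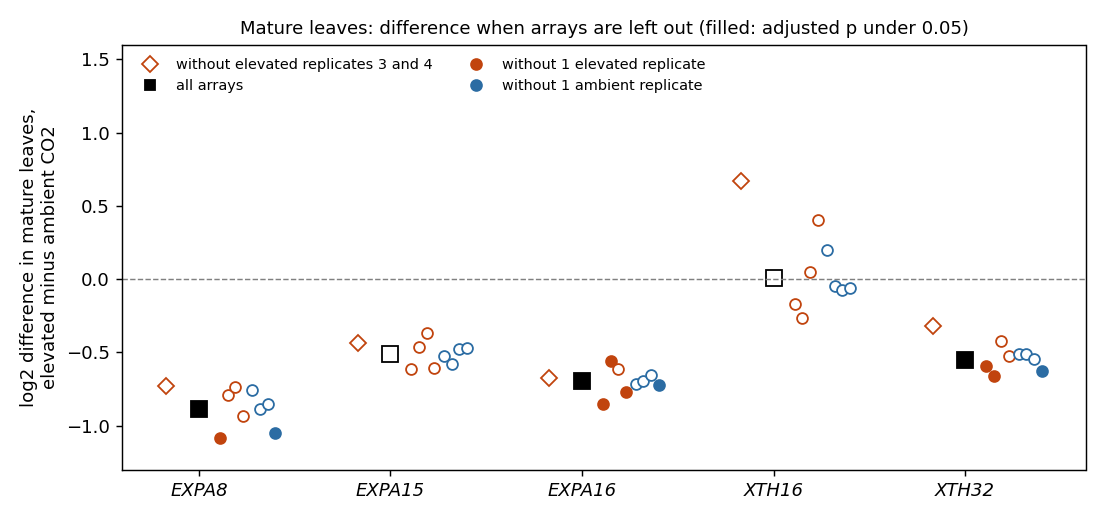
Difference between elevated and ambient CO2 in mature leaves (log2) for each gene with all arrays (squares), without elevated replicates 3 and 4 (diamonds), and without 1 elevated or 1 ambient mature array at a time (circles); filled symbols have an adjusted p under 0.05. EXPA8, EXPA15, EXPA16 and XTH32 stay below 0, and XTH16 lies on either side of it.

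In expanding leaves none of the 5 genes passed in limma, and 0% of all probe sets were called; EXPA16 alone had an unadjusted p under 0.05, 1 of 5 genes, beside 14.7% of all probe sets. EXPA16 was at -0.47 ± 0.20 (SE), at -1.01 ± 0.08 at elevated against -0.53 ± 0.21 at ambient CO2 (SD, n = 3 each; adjusted p 0.270). XTH16 was at -0.52 ± 0.32 (adjusted p 0.462). In both genes all 3 elevated arrays lay below all 3 ambient arrays, 2 of 5 genes, and 20.4% of all probe sets had groups that did not overlap. The expanding groups also differed in other measures. Of the division markers, AUR1, a mitotic kinase, averaged -1.40 ± 0.15 at elevated against -0.77 ± 0.32 at ambient CO2 (SD, n = 3 each) without overlap. PRL overlapped, at -0.42 at elevated and -0.20 at ambient CO2. The photosynthesis markers were lower in mean at elevated CO2. Each rose in mean from primordia to expanding leaves and was lower in mature than in expanding leaves at both CO2 levels. For ATPC1 the mature means were 5.20 at elevated and 5.30 at ambient CO2. ATPC1 averaged 5.26 ± 0.16 at elevated and 5.54 ± 0.10 at ambient CO2 without overlap, while LHCB4.1 and PSBY overlapped. Scores on the first principal component were -32.4 to -23.6 at elevated against -21.5 to -10.5 at ambient CO2. The part of these measures in the differences of EXPA16 and XTH16 was not tested. EXPA8 was at 0.10 ± 0.28 (95% interval -0.47 to 0.68), EXPA15 at -0.11 ± 0.20 (-0.52 to 0.30) and XTH32 at -0.02 ± 0.16 (-0.34 to 0.31).

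In primordia none of the 5 genes passed either, with 0.00799% of all probe sets called, and none had an unadjusted p under 0.05 (3.77% of all probe sets had). EXPA16 was at 0.34 ± 0.17 (SE) and EXPA8 at -0.38 ± 0.24, and EXPA15, XTH16 and XTH32 lay between -0.14 and 0.16. Each of these had a limma adjusted p of 1.00. No gene had groups of arrays that did not overlap here, a pattern seen in 3.22% of all probe sets. Averaged over the 3 stages, the CO2 difference was negative in each of the 5 genes, from -0.39 ± 0.15 in EXPA8 to -0.12 ± 0.17 in XTH16. None was called (adjusted p 0.137 to 0.743), and 1.57% of all probe sets were called in this comparison. An unadjusted p under 0.05 was found for 4 of the 5 genes and for 17.3% of all probe sets. Without mature elevated replicates 3 and 4 the averages ran from -0.34 in EXPA8 to 0.10 in XTH16, none called (adjusted p 0.320 to 0.718).

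**Figure D4:**
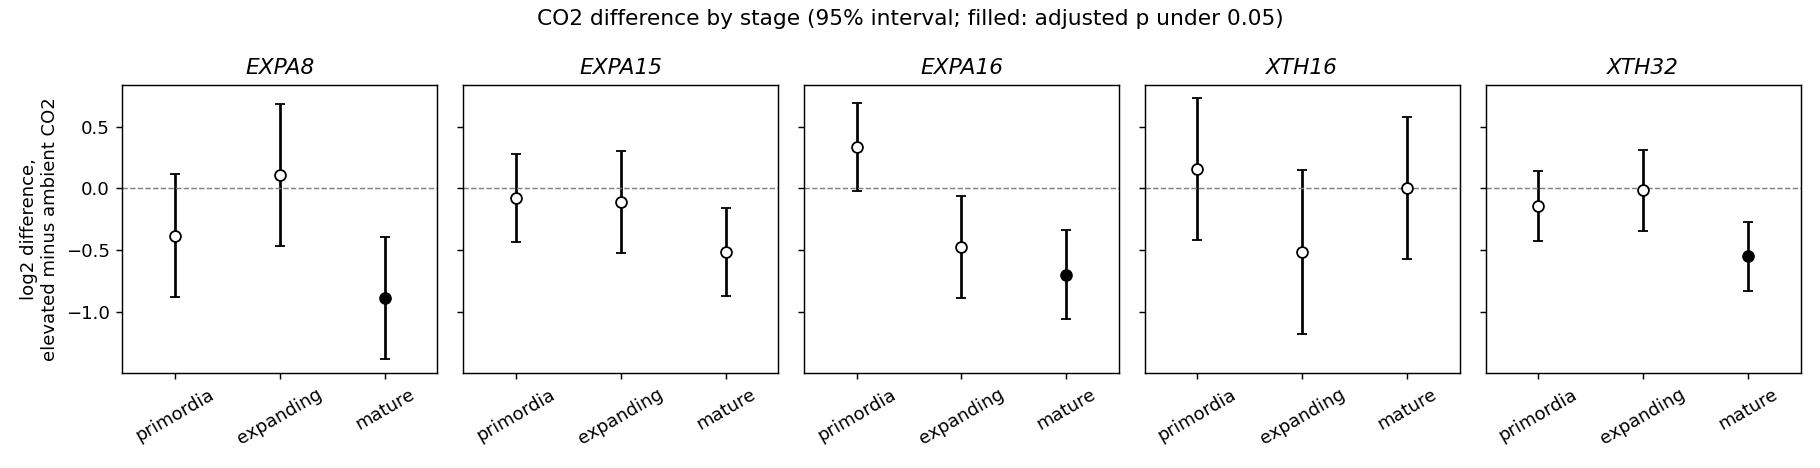
Difference between elevated and ambient CO2 (log2) in each of the 5 genes by stage, with 95% intervals; filled points have an adjusted p under 0.05. EXPA8, EXPA16 and XTH32 are filled in mature leaves, at -0.89, -0.70 and -0.55, and no gene is filled at the earlier stages.

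Whether the CO2 effect itself differed between the stages was tested with a moderated F test, and none of the 5 genes passed (0.032% of all probe sets did). An unadjusted p under 0.05 was found for 3 of the 5 genes and for 13.8% of all probe sets. EXPA16 came nearest: its CO2 difference was 0.34 in primordia, -0.47 during expansion and -0.70 at maturity (limma F 9.87, unadjusted p 0.000978, adjusted p 0.196). The difference between its effects in mature leaves and primordia was -1.03 ± 0.24 (SE; adjusted p 0.168), rank 13 from the lowest among the 12511. That difference was -1.01 without mature elevated replicates 3 and 4 (adjusted p 0.371). For EXPA8 the F test gave an adjusted p of 0.351, for XTH32 0.340, for EXPA15 0.514 and for XTH16 0.607. Without mature elevated replicates 3 and 4 none passed either, but the values moved. The F of XTH16 was 11.8 (adjusted p 0.116), against 1.36 with all arrays, and 5.72 without replicate 4 alone (adjusted p 0.274). Its CO2 effect in mature minus that in expanding leaves was then 1.19 (adjusted p 0.0560), against 0.52 with all arrays. The F of XTH32 was 1.25 (adjusted p 0.645), against 3.87 with all arrays; that of EXPA8 was 2.26 (adjusted p 0.479), that of EXPA15 1.17 (adjusted p 0.660) and that of EXPA16 8.45 (adjusted p 0.166). A CO2 effect called in mature leaves and not at the other stages is therefore not shown to be particular to mature leaves in any of these genes.

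Over all 22 arrays the genes formed a pair and a trio by their courses. EXPA8 and EXPA16 correlated with r = 0.941, and EXPA15 with XTH16 at r = 0.932 and with XTH32 at 0.781, and XTH16 with XTH32 at 0.708; every correlation between the pair and the trio was negative, from -0.791 to -0.652. These values describe the shared stage profile and share arrays and centring. Once each group's mean was removed, EXPA8 and EXPA16 correlated with r = 0.353 over the 22 arrays, EXPA15 and XTH16 with -0.125, and XTH16 and XTH32 with 0.461, the highest of the 10 pairs. Within the 8 mature arrays, about their group means, EXPA16 correlated with EXPA15 at 0.776 and with EXPA8 at 0.763, and XTH16 with XTH32 at 0.561.

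Among the 6777 other probe sets with a single gene, those most like each gene over the 22 arrays were listed. For EXPA8 they were AT3G07010 (r = 0.987), AT5G63180 (r = 0.985) and CCL (r = 0.983). For EXPA15 they were AT3G53190 (r = 0.980), scpl25, a serine carboxypeptidase-like gene (r = 0.980), and AT1G71695 (r = 0.979). For EXPA16 they were AT1G73470 (r = 0.977), AT3G56140 (r = 0.976) and LHCB4.1 (r = 0.972). For XTH16 they were AT5G48490 (r = 0.985), AT4G00810 (r = 0.984) and AT5G47700 (r = 0.983), and for XTH32 AT1G79210, AT3G48460 and AT5G22280, each at r = 0.937. Over the 6 group means these correlations were between 0.960 and 0.998. AT3G07010, the closest to EXPA8, averaged 1.33 in mature leaves at elevated CO2 against 1.88 at ambient CO2. As it was picked for its likeness to EXPA8 on these same arrays, this is no separate result. Much of the variation over the arrays is shared, with 81.3% of the variance in the first principal component.

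The annotation named 6 further genes of both families on single-gene probe sets among those tested. They were the alpha-expansins EXPA4 and EXPA9, the beta-expansin EXPB3, the expansin-like EXLA2 and EXLB1, and EXGT-A3, also known as XTH27. The 5467 tested probe sets that name no gene could not be searched, so other family genes may be among them. All 6 changed between primordia and expanding leaves at elevated CO2, 4 higher and 2 lower, and the counts were the same at ambient CO2, beside 69.9% of all probe sets called at elevated and 66.3% at ambient CO2. EXLB1 rose by 4.62 ± 0.30 (SE) at elevated CO2 and 4.40 ± 0.30 at ambient CO2, and EXGT-A3 by 1.88 ± 0.13 at elevated and 1.83 ± 0.13 at ambient CO2. EXPB3 fell, by a change of -0.83 ± 0.25 at elevated and -0.96 ± 0.25 at ambient CO2, and did so again between expanding and mature leaves, at -1.09 ± 0.25 at elevated and -1.02 ± 0.25 at ambient CO2. EXPA4 fell between primordia and expanding leaves, at -0.67 ± 0.10 at elevated and -0.69 ± 0.10 at ambient CO2, and rose again towards maturity, by 0.57 ± 0.10 at elevated and 0.44 ± 0.10 at ambient CO2. None of the 5 genes had a called fall followed by a called rise. None of the 6 was called for CO2 in mature leaves, where their differences lay between -0.41 ± 0.27 in EXLA2 and 0.22 ± 0.17 in EXPA9, with a median of -0.11; 3.9% of all probe sets were called there.

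**Figure D5:**
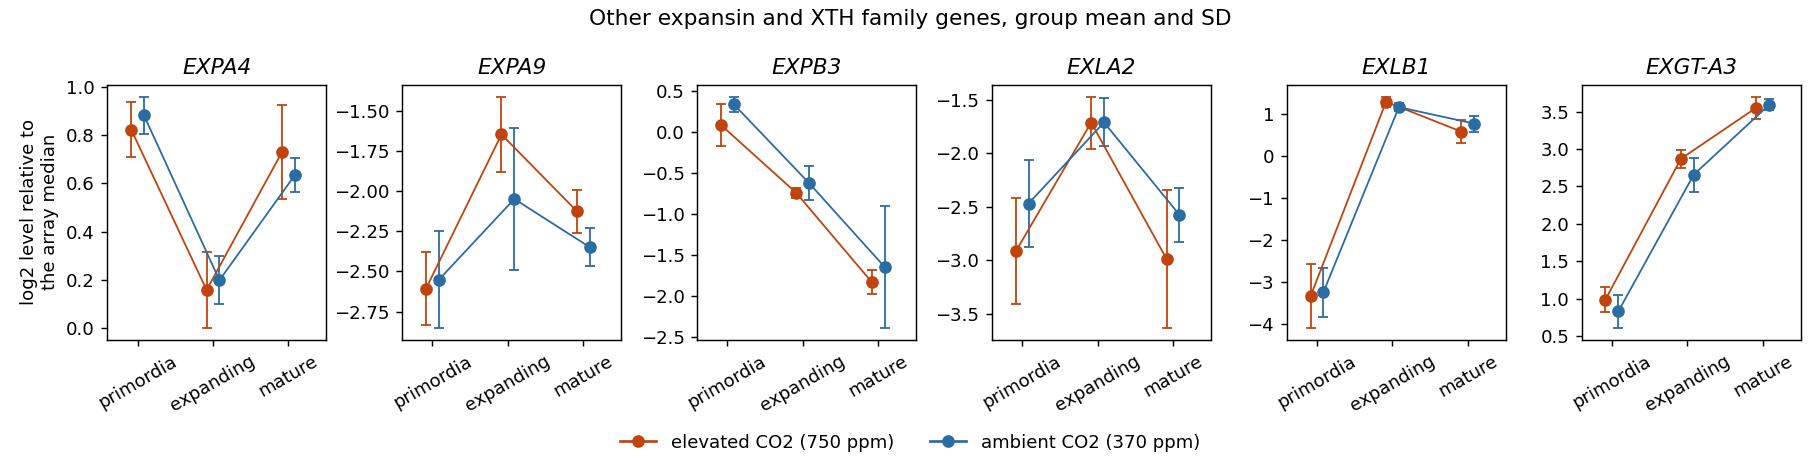
Group means with SD (log2, relative to the array median) of 6 other expansin and XTH family genes by stage, at elevated and ambient CO2. EXLB1 and EXGT-A3 rise from primordia to expanding leaves, EXPB3 falls at both steps, and EXPA4 is lowest in expanding leaves.

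Of 9 other wall and growth genes with a named probe set, CSLC04, a xyloglucan backbone synthase, rose by 1.89 ± 0.12 (SE) from primordia to expanding leaves at elevated CO2 and by 1.48 ± 0.12 at ambient CO2. Its relative CSLC5 fell, at -0.43 ± 0.15 at elevated and -0.46 ± 0.15 at ambient CO2, and CSLC6 was at -0.07 ± 0.13 at elevated and 0.19 ± 0.13 at ambient CO2, neither past the threshold. COB, which is needed for oriented cellulose deposition, rose by 0.48 ± 0.09 at elevated and 0.42 ± 0.09 at ambient CO2, and the vacuolar proton pump subunit gene VHA-A3 by 0.88 ± 0.08 at elevated and 0.78 ± 0.08 at ambient CO2. The pectin methylesterase gene PME61 fell at both steps, with -0.90 ± 0.18 at elevated and -0.80 ± 0.18 at ambient CO2 at the first. The only 1 of these 9 genes called for CO2 in mature leaves was ATPMEPCRB, another pectin methylesterase gene, at 0.75 ± 0.18 (limma adjusted p 0.0257; 0.0172 to 0.131 over 31 alternative settings, 7 of which lost the call), beside 3.9% of all probe sets, and opposite in sign to the 3 calls among the expansins and XTHs.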

How the data were processed

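The authors deposited 1 table of log2 expression values per probe set of an Affymetrix Arabidopsis array for leaf 10 of 22 samples. The base of the log was inferred from the values, which run from -6.80 to 6.54, and each array's median over the 12570 deposited rows is 0. How background was corrected and probes were summarised is not given in the sources used here. Control probe sets (59) were left out. Of the 12511 tested, 6782 name 1 gene in the platform annotation, 262 several and 5467 none. Scanner brightness over background was not analysed here, so precision rests on the number of arrays and the spread between them. Groups came from the sample labels, which call the samples biological replicates.

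A cell-means model of the 6 groups was fitted to all arrays with limma 3.58.1 in R 4.3.3 (lmFit, eBayes). Tests were two-sided, with Benjamini-Hochberg adjustment over the 12511 probe sets. The step was tested on simulated data, where 185 of 200 probe sets changed 2-fold in mature leaves were called, with 10 false calls. Smaller changes were not simulated. The simulated noise was independent between probe sets and arrays, without deviations shared by many probe sets of an array. These numbers therefore do not carry over to the mature arrays, where elevated replicates 3 and 4 stand apart. Members and lists were chosen with earlier results of these data known. Named genes were the members, the 3 most correlated genes for each, and the family and cell wall lists. Alternatives were quantile normalization, other centring, a low-value filter, array weights, another variance prior, fewer arrays, each replicate left out and a replicate block. The labels do not say whether a replicate number marks a shared plant, batch or day. Same-numbered arrays of a stage at elevated and ambient CO2 correlated between -0.248 and 0.261 in their deviations, and differently numbered arrays between -0.499 and 0.513. With 3 or 4 arrays a group this shows no pairing but cannot exclude it.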

Additional observations from a re-analysis of the deposited data

Results flagged for a closer look

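In each of the 20 groups of 4 arrays (5 genes in the primordia and mature groups), the highest and lowest arrays were compared with the rest, and 2 stood apart by Dixon's ratio at its 95% critical value for 4 samples; chance flags about 1 in 20 groups. EXPA8 was highest in ambient primordia replicate 2, at -1.11 against -1.85 to -1.74 in the other 3 arrays (ratio 0.850). XTH16 was highest in ambient mature replicate 1, at -1.81 against -2.63 to -2.55 in the other 3 arrays (ratio 0.898). Without that array the difference in mature leaves of XTH16 was 0.20 (limma adjusted p 0.763).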

How the results depend on the processing

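Of 65 changes of the 5 genes, 28 were called, and none of these reversed under the 30 or 31 alternatives run for each. Of the 25 called stage changes, 23 passed under every alternative. The exceptions, given above, were the late fall of EXPA8 at elevated CO2 and the first step of XTH16 at ambient CO2. The calls in mature leaves depended most on the settings. Their number, 3 of 5, was 1 with array weights (XTH32 alone; 261 of all probe sets called, against 488) and 0 with only the mature arrays in the fit, when no probe set was called (limma adjusted p 0.165 for EXPA8, 0.150 for EXPA16 and 0.171 for XTH32). It was 0 without elevated replicates 3 and 4, when 30 probe sets were called, and 0 to 3 without 1 array at a time, when 60 to 1051 probe sets were called. With the replicate block it was 2, since EXPA16 did not pass (adjusted p 0.0667), and 277 probe sets were called. Whether the replicate numbers pair the samples is not known. For the CO2 effect averaged over stages, 0 to 1 of the 5 genes passed without 1 array at a time (XTH32 without elevated mature replicate 2, at -0.27, adjusted p 0.0468). The filter on low values removed EXPA16.

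Signs turned only in 9 changes that had not been called. Without 1 array at a time, the CO2 difference in expanding leaves was -0.32 to 0.080 for EXPA15, -0.049 to 0.27 for EXPA8 and -0.14 to 0.073 for XTH32. That of XTH32 was also 0.0096 after quantile normalization and 0.0015 with arrays centred on their mean. XTH16 was at -0.26 to 0.40 in mature leaves, -0.21 to 0.015 averaged over stages and -0.42 to 0.25 for the CO2 effect in mature leaves minus that in primordia; without elevated mature replicates 3 and 4 the average was 0.10 and that difference 0.51. The step from expanding to mature leaves at ambient CO2 was -0.014 to 0.19 for EXPA16 and -0.031 to 0.27 for EXPA8, and the CO2 effect of EXPA15 in expanding leaves minus that in primordia was -0.24 to 0.16. The causes were not tested. A fit of only the groups compared was not run for averages and differences over stages.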
